A study of Mus musculus with 4 samples.

Results

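The genes described here are 42 genes of smooth muscle and of stress fibres, with no actin among them, out of 32285 genes counted in each library. They were taken by symbol as a list of contractile apparatus genes, by a rule that uses no measured value. These genes were, however, chosen with earlier results of these data known. Their unique molecular identifiers (UMIs, the molecules counted in a cell) were summed over the cells of each of 4 droplet-based single-cell libraries. Cells were barcodes with 5000 to 75000 UMIs, 200 to 7500 genes and under 10% mitochondrial UMIs.

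The libraries came from chow-fed male C57BL/6J mice, and all 4 held primary cells that were cultured, lifted with trypsin and sorted after 7-AAD staining, a dye that enters dead cells. De-differentiated fat (DFAT) cells are fibroblast-like cells that mature adipocytes turn into in the so-called ceiling culture. There the adipocytes float up in a full, inverted flask and attach to its upper surface. iWAT_DFAT cells came from inguinal and eWAT_DFAT cells from epididymal white adipose tissue. iWAT_ASPC and eWAT_ASPC cells were expanded from the stromal vascular fraction (SVF) of the same depots and are termed adipose stem and progenitor cells (ASPCs). The labels name them only as cultured SVF cells. The age of the mice and the number pooled are not given in the sources used here. Each condition was 1 library, so the values carry no replicate error. The intervals below are exact 95% intervals that hold counting error only, and no difference between conditions was tested. A level is given in CPM, the UMIs of a gene per 1000000 UMIs of the cells in a library.

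Smooth muscle cells and myofibroblasts build contractile bundles from actin and myosin, and stromal cells on stiff plastic build related stress fibres. Thin filaments of actin carry tropomyosin, calponin, caldesmon and transgelin. Non-muscle or smooth muscle myosin pulls on them once its regulatory light chain is phosphorylated, and LIM proteins, alpha-actinin, filamin, vinculin and zyxin tie the bundles to each other and to adhesions. Many of these genes are known targets of serum response factor (SRF), which binds a DNA site called the CArG box together with myocardin or the related MRTF factors.

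The cells numbered 7629 in iWAT_DFAT, 6464 in eWAT_DFAT, 7424 in iWAT_ASPC and 6745 in eWAT_ASPC, with 183664704 to 199357348 UMIs per library and a median of 22111 to 27617 UMIs per cell. The median mitochondrial share was 3.12% in iWAT_DFAT and 1.95% to 2.25% in the others. Between 13 and 20 cell barcodes were shared by any pair of libraries, at most 0.297% of the cells of one. The stromal marker Pdgfra had a UMI in 93.7% of iWAT_DFAT, 78.8% of eWAT_DFAT, 73.6% of iWAT_ASPC and 74.2% of eWAT_ASPC cells.

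The contractile genes were lowest in iWAT_DFAT and highest in eWAT_ASPC. iWAT_DFAT held the lowest level for 35 of the 42 genes, against 23.0% of the 10757 genes that reached 5 CPM in any library. eWAT_ASPC held the highest for 30 of the 42, against 19.9%. Kcnmb1 and Myocd never reached 5 CPM and were among the 35, but not among the 30 or the 10757. The order iWAT_DFAT, eWAT_DFAT, iWAT_ASPC, eWAT_ASPC from low to high was shared by 19 genes of the 40 that reached 5 CPM. Of the 10757 genes, 6.67% shared it. Among the 19 were Tagln, Cnn1, Tpm2, Myl9, Mylk and Flna. Cav1 was instead highest in iWAT_DFAT and lowest in eWAT_ASPC. Summed over the 42 genes, with each cell thinned to 5000 UMIs, they took 0.944% of the UMIs in iWAT_DFAT, 1.85% in eWAT_DFAT, 2.20% in iWAT_ASPC and 2.90% in eWAT_ASPC.

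**Figure D1:**
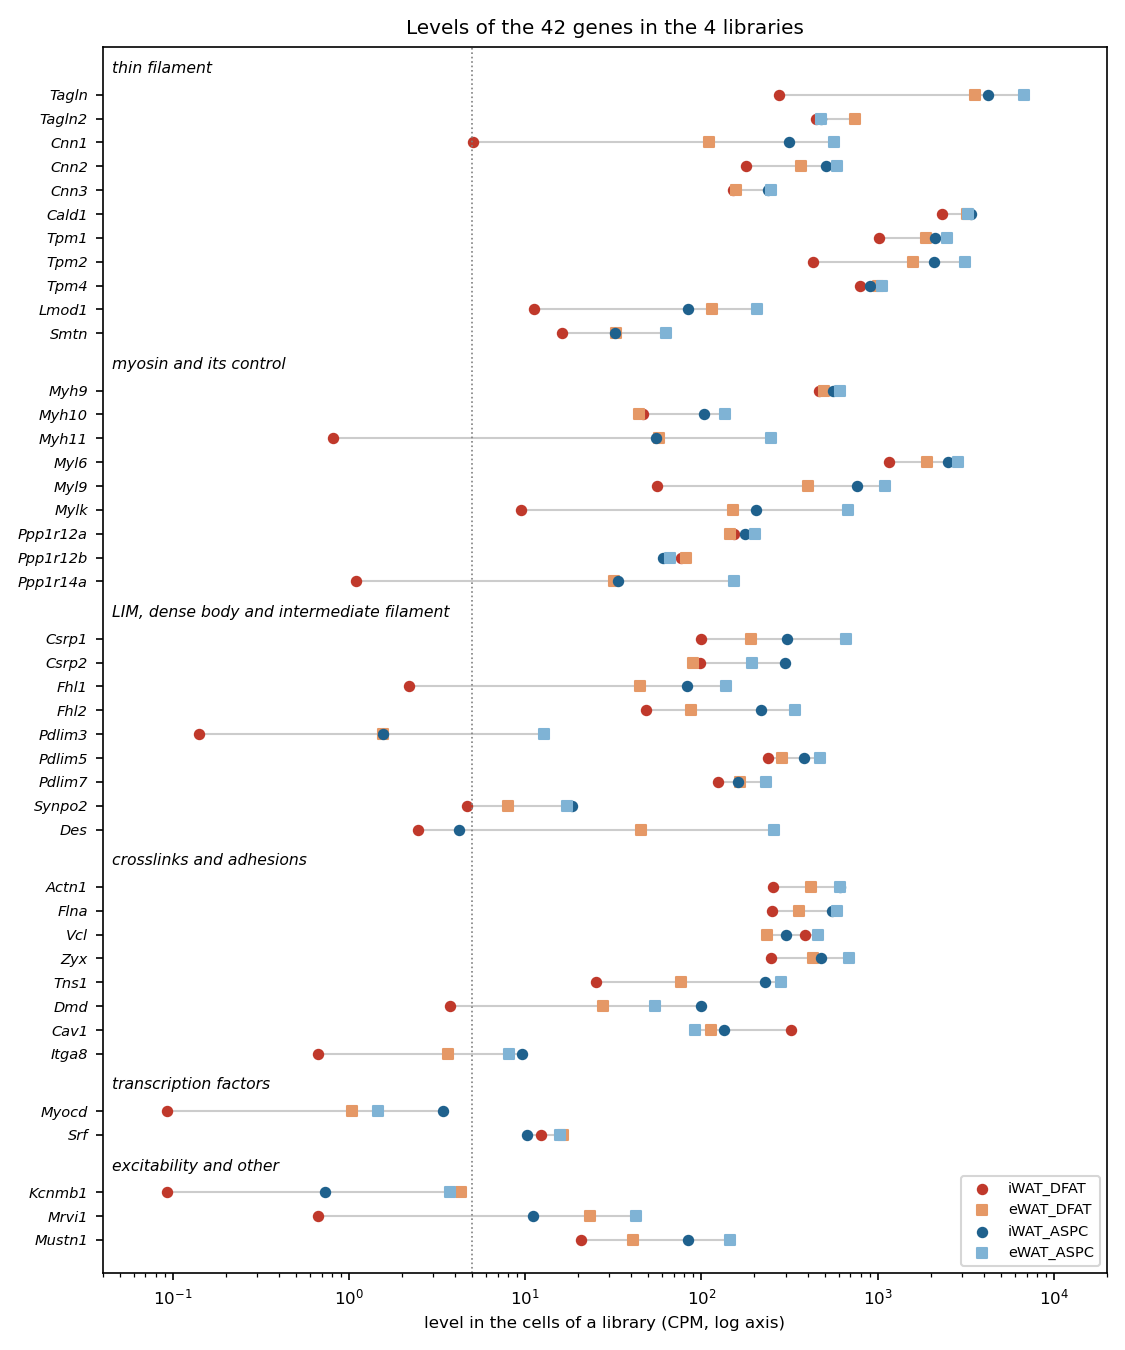
Level of each of the 42 genes in CPM on a log axis (x), grouped by role (y), with 1 point per library and the 5 CPM limit as a dotted line. The red circles of iWAT_DFAT lie at the left end for 35 genes, far to the left for Myh11 (0.811 CPM), Cnn1 (5.07 CPM) and Fhl1 (2.21 CPM), while Cav1 is the one gene whose red circle is the rightmost.

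A gene was counted as different between 2 libraries when it reached 5 CPM in the higher of them and was 2-fold or more apart. Between DFAT cells and ASPCs of iWAT, 24 of 38 genes that reached this level were lower in iWAT_DFAT, where 5.18% of all genes were. One gene, Cav1, was higher, where 9.91% of all genes were. In eWAT, 16 of 40 genes were lower in eWAT_DFAT, with 6.67% of all genes, and 0 were higher, with 6.44%. The median log2 ratio of the genes was -1.38 in iWAT and -0.93 in eWAT, and that of all genes was 0.088 and 0.070. Both comparisons are between the cells of 1 culture and those of another, and 14 of the 38 genes that reached 5 CPM in both were 2-fold or more lower in both, where 2.54% of all genes were: Cnn1, Myh10, Myh11, Myl9, Mylk, Ppp1r14a, Csrp1, Csrp2, Fhl1, Fhl2, Synpo2, Tns1, Itga8 and Mustn1. Of these, Csrp1, Csrp2, Itga8, Ppp1r14a and Synpo2 came under 2-fold in one depot when some cells were left out. Another 10 passed in iWAT and not in eWAT, where Tagln (log2 ratio -0.92), Tpm2 (-0.97) and Dmd (-0.98) were just short of the limit. In cells without a cell cycle UMI the Dmd log2 ratio in eWAT was 0.10. These cells were also shallower, with median depths of 14277 to 20212 UMIs per library against 22746 to 28192 in the other cells. The part of depth in such ratios, here and below, was not tested. The difference between depots was not tested, and the share of all genes that passed in only 1 depot was not counted. Des and Pdlim3 passed in eWAT, and neither reached 5 CPM in either iWAT library, where Des was 1.71-fold and Pdlim3 11.0-fold lower in the DFAT cells.

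**Figure D2:**
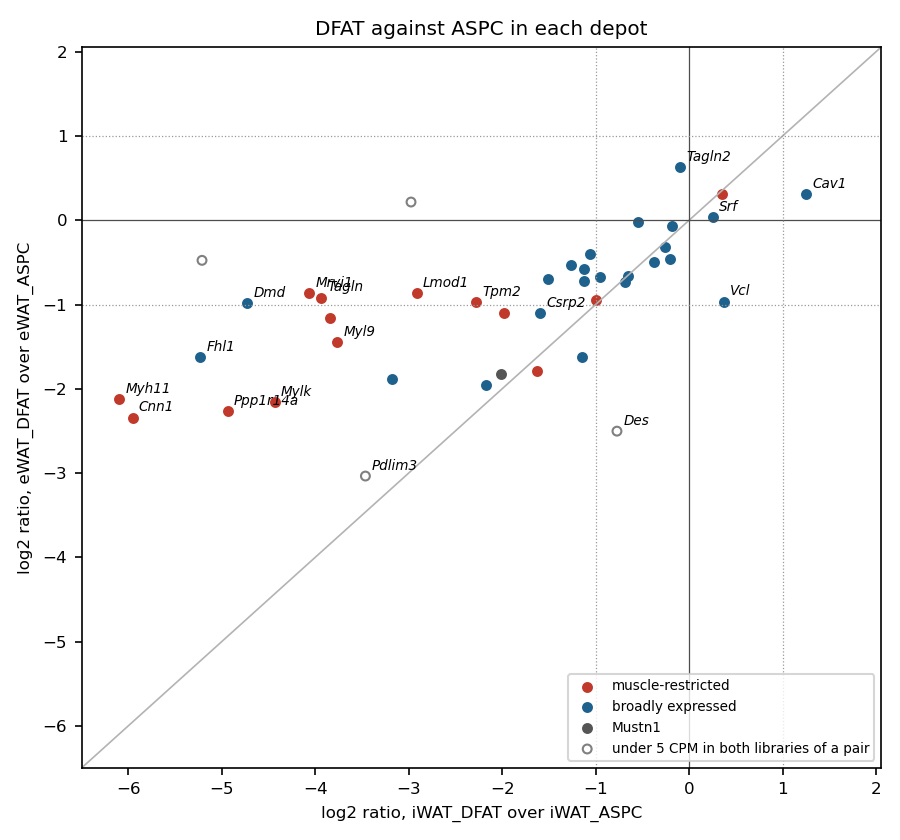
Each point is 1 gene, with its log2 ratio of DFAT cells to ASPCs in iWAT (x) and in eWAT (y). Dotted lines mark 2-fold and the grey diagonal marks equal ratios. Genes known mainly from muscle (red, muscle-restricted) spread to -6.10 (Myh11) along x but only to -3.03 along y (Pdlim3, an open circle since it stayed under 5 CPM in both iWAT libraries), and Cav1, Vcl, Ppp1r12b and Srf lie to the right of 0 on the x axis.

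Between depots, 15 of 38 genes were 2-fold or more lower in iWAT_DFAT than in eWAT_DFAT, where 3.95% of all genes were, and Cav1 alone was higher, where 8.29% were. Among ASPCs, 8 of 40 were lower in iWAT_ASPC than in eWAT_ASPC, with 3.94% of all genes, and 0 were higher, with 2.94%. The median log2 ratio was -0.83 in DFAT cells and -0.46 in ASPCs, against 0.091 and 0.053 over all genes. Lmod1, Myh11, Mylk, Ppp1r14a, Des and Mrvi1 were lower in the inguinal cells of both kinds, 6 of 38 against 1.07% of all genes. Tagln, Cnn1, Cnn2, Tpm2, Smtn, Myl9, Fhl1, Tns1 and Dmd passed among DFAT cells and not among ASPCs. Csrp1 and Pdlim3 passed the other way round, with no test of the difference. The share of all genes that passed among DFAT cells only, or among ASPCs only, was not counted. Csrp1 (-0.95 and -1.11) and Smtn (-1.01 and -0.96) lay on both sides of the limit, and Pdlim3 was 11.1-fold lower in iWAT_DFAT than in eWAT_DFAT but under 5 CPM in both. The 4 comparisons share libraries in pairs, so a low iWAT_DFAT value enters both of its ratios.

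**Figure D3:**
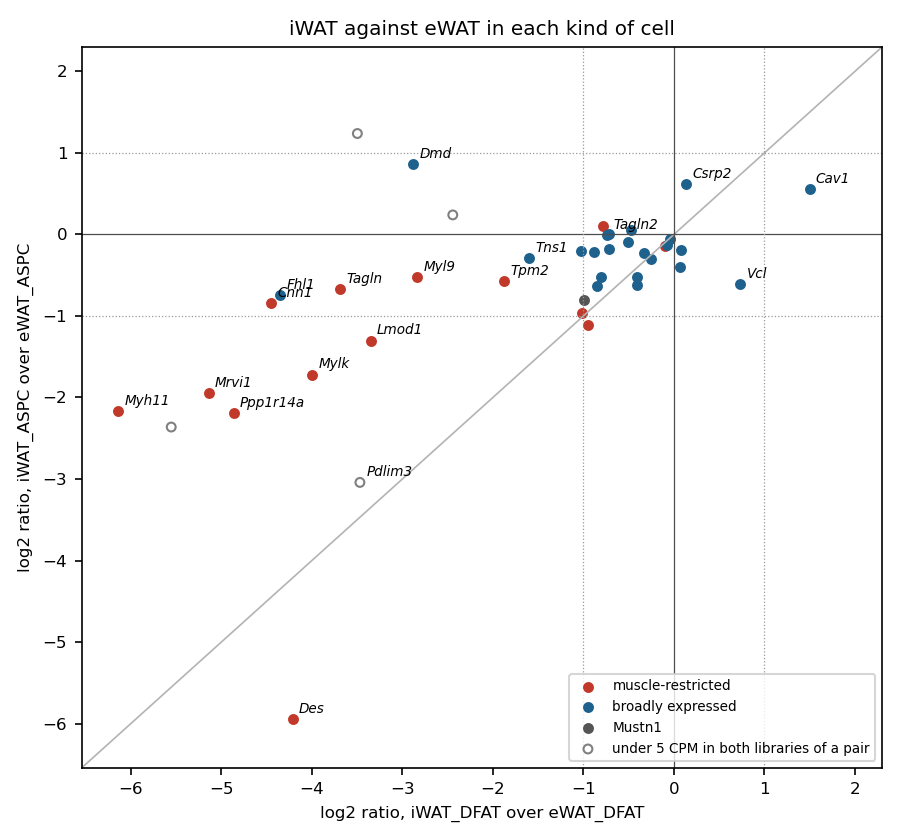
Each point is 1 gene, with its log2 ratio of iWAT to eWAT among DFAT cells (x) and among ASPCs (y). Most muscle genes lie above the grey diagonal, Des lies below it at -4.21 and -5.94, and Dmd and Vcl sit on opposite sides of 0 on the 2 axes.

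The genes were divided into 18 known mainly from muscle, such as Tagln, Cnn1, Myh11 and Des, and 23 that are also used widely outside muscle, such as Myh9, Tpm4 and Vcl, with Mustn1 left apart. Fhl1 and Dmd were placed among the 23, and Csrp1, Mylk and Smtn among the 18, so the split is coarse. For the 18, the median log2 ratio over those that reached 5 CPM was -3.80 between iWAT_DFAT and iWAT_ASPC, -1.30 between the eWAT libraries, -3.52 between the DFAT libraries and -1.04 between the ASPC libraries. For the 23 it was -0.95, -0.66, -0.47 and -0.21. The median of the muscle genes was thus lower in each of the 4 comparisons. Some genes reached 5 CPM only in the higher library. Myh11, Ppp1r14a and Mrvi1 of the 18, and Fhl1 and Dmd of the 23, were under 5 CPM in iWAT_DFAT. The 2 groups were not matched for level. The share of all genes called in no comparison was not counted, and 14 of the 42 genes were called in none. Of these, Kcnmb1 and Myocd never reached 5 CPM, and the others were within 2-fold wherever they reached it, among them Tagln2, Cald1, Tpm4, Myh9, Ppp1r12a, Ppp1r12b, Zyx and Srf.

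Among thin filament genes, Tagln encodes transgelin (SM22), an actin-bundling protein and an early mark of smooth muscle. Tagln (ENSMUSG00000032085, chr9:45929619-45936058 on the minus strand of mm10, GENCODE M21) stood at 277 CPM in iWAT_DFAT, 3571 in eWAT_DFAT, 4241 in iWAT_ASPC and 6744 in eWAT_ASPC. It was 15.3-fold (15.2 to 15.5) lower in iWAT_DFAT than in iWAT_ASPC and 1.89-fold lower in eWAT_DFAT than in eWAT_ASPC. The iWAT_DFAT value was the one far from the rest. Cnn1, the calponin of smooth muscle, stood at 5.07, 111, 314 and 563 CPM in the same order. It was 62.0-fold (58.1 to 66.2) lower in the DFAT cells of iWAT and 5.07-fold (4.99 to 5.14) lower in those of eWAT. Its relatives in other cells differed less, as Cnn2 stood at 180, 366, 512 and 591 CPM and Cnn3 at 151, 156, 238 and 247 CPM.

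Tropomyosins lie along actin filaments and set which myosins may bind. Tpm2, the beta-tropomyosin of smooth muscle, stood at 432, 1584, 2090 and 3111 CPM, and was 4.84-fold lower in iWAT_DFAT than in iWAT_ASPC and 1.96-fold lower in eWAT_DFAT than in eWAT_ASPC. Tpm1 stood at 1023, 1883, 2125 and 2477 CPM. Tpm4, a tropomyosin of non-muscle cells, stood at 794, 1002, 902 and 1053 CPM and did not differ by more than 1.26-fold in any of the 4 comparisons. Lmod1, a leiomodin that nucleates actin filaments in smooth muscle, stood at 11.2, 114, 84.3 and 208 CPM, higher in both eWAT libraries than in either iWAT library. Cald1, the gene of caldesmon, stood at 2306, 3198, 3367 and 3239 CPM. Smtn, the gene of smoothelin, stood at 16.1, 32.6, 32.2 and 62.7 CPM, with the middle libraries inside each other's counting intervals. Tagln2, the transgelin of most other cells, was highest in eWAT_DFAT at 744 CPM and stood at 445 to 479 CPM elsewhere.

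Of the motor genes, Myh11 is the heavy chain of smooth muscle myosin and the most specific of these markers. Myh11 (ENSMUSG00000018830, chr16:14194535-14291372, minus strand) stood at 0.811 CPM in iWAT_DFAT, from 149 UMIs in all cells, and at 57.3 CPM in eWAT_DFAT, 55.5 in iWAT_ASPC and 249 in eWAT_ASPC. It was 68.4-fold (58.2 to 80.9) lower in iWAT_DFAT than in iWAT_ASPC and 4.35-fold lower in eWAT_DFAT than in eWAT_ASPC. In droplets with 1 to 100 UMIs, which hold free RNA, Myh11 stood at 1.52, 64.4, 69.6 and 349 CPM in the same order, above the level in cells in all 4 libraries. The non-muscle heavy chains did not follow it. Myh9 stood at 467, 493, 559 and 613 CPM. Myh10 stood at 46.4, 44.3, 103 and 136 CPM, apart between DFAT cells and ASPCs but within 1.32-fold between depots.

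The light chain genes split in the same way. Myl9, the regulatory light chain of smooth muscle myosin, stood at 56.2, 402, 763 and 1095 CPM, 13.6-fold (13.3 to 13.9) lower in iWAT_DFAT than in iWAT_ASPC and 2.73-fold (2.70 to 2.75) lower in eWAT_DFAT than in eWAT_ASPC. Myl6, the essential light chain of nearly all cells, stood at 1153, 1903, 2509 and 2850 CPM. Mylk, the kinase that phosphorylates the regulatory light chain, stood at 9.50, 152, 205 and 675 CPM, 21.6-fold lower in iWAT_DFAT and 4.46-fold lower in eWAT_DFAT than in the ASPCs of the depot. Its opponent is the myosin phosphatase, whose targeting subunits come from Ppp1r12a and Ppp1r12b and whose inhibitor CPI-17 comes from Ppp1r14a. The targeting subunits were close to level, with Ppp1r12a at 154, 146, 177 and 201 CPM and Ppp1r12b at 76.8, 82.2, 60.2 and 66.2 CPM. Ppp1r14a stood at 1.10, 32.0, 33.7 and 154 CPM, 30.6-fold (26.6 to 35.4) lower in iWAT_DFAT than in iWAT_ASPC. The kinase and the inhibitor of the phosphatase were thus both low in iWAT_DFAT while the phosphatase subunits were not.

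Desmin is the intermediate filament of muscle, and its gene differed more between depots than between kinds of cell. Des (ENSMUSG00000026208, chr1:75360329-75368579, plus strand) stood at 2.47 CPM in iWAT_DFAT and 4.21 in iWAT_ASPC, and at 45.7 in eWAT_DFAT and 259 in eWAT_ASPC. It was 61.5-fold (57.5 to 65.9) lower in iWAT_ASPC than in eWAT_ASPC and 18.5-fold (16.9 to 20.4) lower in iWAT_DFAT than in eWAT_DFAT. Between kinds of cell it was 5.66-fold (5.54 to 5.80) lower in eWAT_DFAT than in eWAT_ASPC and 1.71-fold (1.52 to 1.92) lower in iWAT_DFAT than in iWAT_ASPC. Both iWAT libraries were under 5 CPM and both eWAT libraries were well above it. In the few cells without a cell cycle UMI the Des log2 ratio of iWAT_ASPC to eWAT_ASPC was -3.58, against -5.94 in all cells. Pdlim3, which encodes a PDZ and LIM domain protein of the muscle Z line, was lower by 8.24-fold (7.32 to 9.30) in iWAT_ASPC than in eWAT_ASPC, at 0.142, 1.57, 1.56 and 12.8 CPM in the order used above. In cells without a cell cycle UMI this log2 ratio was -0.97, against -3.04 in all cells. The widely expressed relatives of Pdlim3 were close, with Pdlim5 at 239, 285, 384 and 471 CPM and Pdlim7 at 125, 165, 161 and 233 CPM.

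The LIM-only genes encode small adaptors of Z lines, dense bodies and adhesions. Fhl1 stood at 2.21, 45.0, 82.6 and 139 CPM and was 37.5-fold (33.9 to 41.5) lower in iWAT_DFAT than in iWAT_ASPC, against 3.08-fold in eWAT. Fhl2 stood at 48.3, 87.3, 218 and 338 CPM. It was 4.51-fold lower in iWAT_DFAT and 3.87-fold lower in eWAT_DFAT than in the ASPCs of the depot. Csrp1 stood at 99.02, 191, 305 and 660 CPM. Csrp2 stood at 98.3, 89.7, 296 and 193 CPM, highest in iWAT_ASPC. Synpo2, the gene of the Z-line protein myopodin, stood at 4.66, 8.001, 18.4 and 17.2 CPM, apart between DFAT cells and ASPCs, and 1.72-fold lower in iWAT_DFAT than in eWAT_DFAT. In cells without a cell cycle UMI the latter log2 ratio was -2.12, against -0.78 in all cells.

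Genes of crosslinks and adhesions included both lower and higher ones. Actn1 (alpha-actinin) stood at 256, 421, 612 and 608 CPM, and its 2 ASPC values differed by less than the counting interval. Flna (filamin A) stood at 251, 357, 548 and 587 CPM and Zyx (zyxin) at 247, 432, 478 and 687 CPM. Tns1, the gene of tensin 1, which joins actin to integrins in mature adhesions, stood at 25.3, 76.6, 230 and 282 CPM, 9.07-fold lower in iWAT_DFAT and 3.68-fold lower in eWAT_DFAT than in the ASPCs of the depot. Itga8, an integrin subunit of contractile stromal cells, stood at 0.670, 3.64, 9.60 and 8.13 CPM. Dmd, the gene of dystrophin, stood at 3.77, 27.7, 99.8 and 54.8 CPM. It was 26.5-fold (24.6 to 28.6) lower in iWAT_DFAT than in iWAT_ASPC, yet 1.82-fold higher in iWAT_ASPC than in eWAT_ASPC, so that its depot difference had opposite signs in the DFAT cells and the ASPCs.

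Vcl and Cav1 departed from the other adhesion genes. Vcl (chr14:20929398-21033676, plus strand) encodes vinculin, which couples integrin adhesions to actin, and stood at 389 CPM in iWAT_DFAT, 234 in eWAT_DFAT, 300 in iWAT_ASPC and 456 in eWAT_ASPC. It was 1.30-fold (1.28 to 1.31) higher in iWAT_DFAT than in iWAT_ASPC and 1.95-fold (1.93 to 1.97) lower in eWAT_DFAT than in eWAT_ASPC. Cav1 (chr6:17306335-17341452, plus strand) encodes caveolin 1, the coat protein of caveolae, which are abundant in smooth muscle, endothelium and adipocytes. It stood at 321, 114, 134 and 91.5 CPM. Cav1 was 2.83-fold (2.78 to 2.87) higher in iWAT_DFAT than in eWAT_DFAT and 2.39-fold (2.35 to 2.42) higher than in iWAT_ASPC, and was the one gene of the 42 past 2-fold in that direction. In cells without a cell cycle UMI its log2 ratio between the DFAT libraries was 0.63, against 1.499 in all cells. Its log2 ratio of eWAT_DFAT to eWAT_ASPC was 1.66 in those cells, past 2-fold, against 0.31 in all cells. The adipocyte markers Adipoq, Plin1, Cidec, Lep, Car3, Cfd and Pck1 summed to 23.1 CPM in iWAT_DFAT, 96.3 in eWAT_DFAT, 0.446 in iWAT_ASPC and 1.23 in eWAT_ASPC, so they were higher in both DFAT libraries and highest in eWAT_DFAT, where Cav1 was not. Lep had 0 UMIs in all 4 libraries. Their part in the Cav1 levels was not tested.

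Genes of excitability and growth complete the set. Kcnmb1, the beta subunit of the large calcium-activated potassium channel of smooth muscle, was scarce throughout at 0.0926, 4.35, 0.727 and 3.74 CPM and higher in both eWAT libraries. Mrvi1, a substrate of cGMP-dependent kinase in smooth muscle, stood at 0.664, 23.4, 11.1 and 42.6 CPM, 35.3-fold (29.5 to 42.6) lower in iWAT_DFAT than in eWAT_DFAT. Mustn1, a small nuclear protein of muscle and bone, stood at 20.7, 41.2, 83.7 and 146 CPM.

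Of the transcription factors, Srf was low and within 2-fold in all 4 comparisons, and Myocd was scarce. Srf stood at 12.3 CPM in iWAT_DFAT, 16.3 in eWAT_DFAT, 10.3 in iWAT_ASPC and 15.9 in eWAT_ASPC, and its log2 ratio between DFAT cells and ASPCs was 0.26 (0.17 to 0.34) in iWAT and 0.04 (-0.03 to 0.11) in eWAT. The iWAT_DFAT cells, lowest in most of the set, were thus above iWAT_ASPC for Srf. Myocd, the gene of myocardin, was too scarce to be counted in any comparison, with 17 UMIs (0.0926 CPM) in iWAT_DFAT, 1.05 CPM in eWAT_DFAT, 3.43 in iWAT_ASPC and 1.45 in eWAT_ASPC. It was lowest in iWAT_DFAT, 37.0-fold (22.9 to 63.9) lower than in iWAT_ASPC. Of 13 genes of MRTF, Hippo and related factors, 0 of the 12 that reached 5 CPM were 2-fold apart between iWAT_DFAT and iWAT_ASPC, where 5.18% of all genes were lower and 9.91% higher, and their median log2 ratio was 0.09. Klf4 was higher and Mrtfa lower in iWAT_DFAT than in eWAT_DFAT, Klf4 was lower in eWAT_DFAT than in eWAT_ASPC, and 0 of 13 passed between the ASPC libraries, where 3.94% of all genes were lower and 2.94% higher. In so short a list little can be read from 0 calls. Klf4, a factor that represses smooth muscle genes, stood at 123, 39.1, 122 and 94.4 CPM and was lowest in eWAT_DFAT. Mrtfa, the gene of an actin-sensing SRF cofactor, stood at 58.0, 121, 82.1 and 118 CPM and was lowest in iWAT_DFAT.

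RefSeq promoter windows, from 250 bases before to 50 bases after a start, were found for 38 of the 42 genes (48 windows, GRCm38.p6), and not for Tagln, Myh11, Myocd and Csrp2. A CArG box (CC, a run of A and T only, then GG, read on both strands, on which it matches itself) occurred in 9 of the 48 windows, or 18.8%, against 1.63% of all 32851 promoter windows. The genes were Cnn2, Dmd, Fhl1, Fhl2, Myl6, Myl9, Srf and Vcl. The 250 bases upstream of the start are shown for 5 of them, with the CArG box in capitals: Myl9, Fhl1 and Dmd, which were 13.6-fold or more lower in iWAT_DFAT than in iWAT_ASPC, Vcl, which was not lower, and Srf itself. They lie at chr2:156775214-156775463 (plus), chrX:56779433-56779682 (plus), chrX:82948620-82948869 (plus), chr14:20929148-20929397 (plus) and chr17:46556163-46556412 (minus). Srf holds 2 boxes and the others 1. Fhl1 and Dmd each had another window, not shown, that held no box, and which start the cells used was not tested.
Myl9: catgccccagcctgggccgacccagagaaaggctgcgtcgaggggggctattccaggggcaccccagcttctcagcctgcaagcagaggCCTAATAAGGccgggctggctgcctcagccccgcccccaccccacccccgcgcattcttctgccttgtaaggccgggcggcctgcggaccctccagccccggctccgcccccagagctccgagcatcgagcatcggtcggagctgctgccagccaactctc
Fhl1: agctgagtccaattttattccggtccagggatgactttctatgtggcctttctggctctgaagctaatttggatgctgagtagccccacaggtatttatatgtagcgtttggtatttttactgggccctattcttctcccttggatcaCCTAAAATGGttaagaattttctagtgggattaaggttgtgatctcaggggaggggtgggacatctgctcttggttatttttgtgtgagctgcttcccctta
Dmd: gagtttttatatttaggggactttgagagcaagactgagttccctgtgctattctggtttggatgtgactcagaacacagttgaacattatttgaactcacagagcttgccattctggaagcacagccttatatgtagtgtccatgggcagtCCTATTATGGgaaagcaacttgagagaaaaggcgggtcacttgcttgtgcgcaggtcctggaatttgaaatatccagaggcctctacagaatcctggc
Vcl: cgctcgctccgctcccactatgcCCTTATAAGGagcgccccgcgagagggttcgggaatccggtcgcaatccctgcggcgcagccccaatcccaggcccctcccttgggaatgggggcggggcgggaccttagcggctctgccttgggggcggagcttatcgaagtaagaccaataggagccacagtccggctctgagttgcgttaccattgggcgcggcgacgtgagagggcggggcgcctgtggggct
Srf: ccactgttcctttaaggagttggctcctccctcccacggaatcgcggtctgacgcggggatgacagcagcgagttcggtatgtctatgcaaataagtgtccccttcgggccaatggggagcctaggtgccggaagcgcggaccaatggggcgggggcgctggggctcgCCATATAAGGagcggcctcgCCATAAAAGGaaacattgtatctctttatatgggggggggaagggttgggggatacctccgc
The same site thus stood upstream of genes that were far apart between the libraries and of genes that were not. Of the 8 genes with a site in a window, 6 were 2-fold or more lower in iWAT_DFAT than in iWAT_ASPC, and of the genes whose windows held no site 15 of 27 were, beside 5.18% of all genes. A match describes these letters only.

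Per cell, the sum over the genes was low across the iWAT_DFAT culture. With each cell thinned to 5000 UMIs, the 42 genes summed to a median of 45 UMIs per cell in iWAT_DFAT, 86 in eWAT_DFAT, 105 in iWAT_ASPC and 136 in eWAT_ASPC. The range from the 10th to the 90th percentile of cells was 29 to 67, 46 to 149, 59 to 166 and 66 to 236. The 18 muscle genes had medians of 3, 25, 35 and 58 UMIs per cell, and the 23 widely used genes 41, 59, 68 and 75. Tagln and Tpm2 made up much of the muscle sum. Tagln had means of 1.22, 17.3, 20.2 and 31.9 UMIs and Tpm2 of 2.05, 7.83, 10.1 and 15.1. The mean sums were 4.64, 31.4, 39.3 and 66.3 UMIs. For the muscle sum the 90th percentile in iWAT_DFAT, 10 UMIs, was under the 25th percentile of each other library, 11 to 33 UMIs. Tagln reached 10 UMIs in 3.22% of iWAT_DFAT cells, 58.0% of eWAT_DFAT cells, 78.0% of iWAT_ASPC cells and 86.2% of eWAT_ASPC cells. What Tagln was left in iWAT_DFAT lay in fewer cells, as the 5% of cells with the most Tagln held 55.5% of its UMIs there and 12.8% to 16.8% in the other libraries. At least 5 Cav1 UMIs were found in 7.04%, 2.09%, 0.727% and 0.979% of cells.

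**Figure D4:**
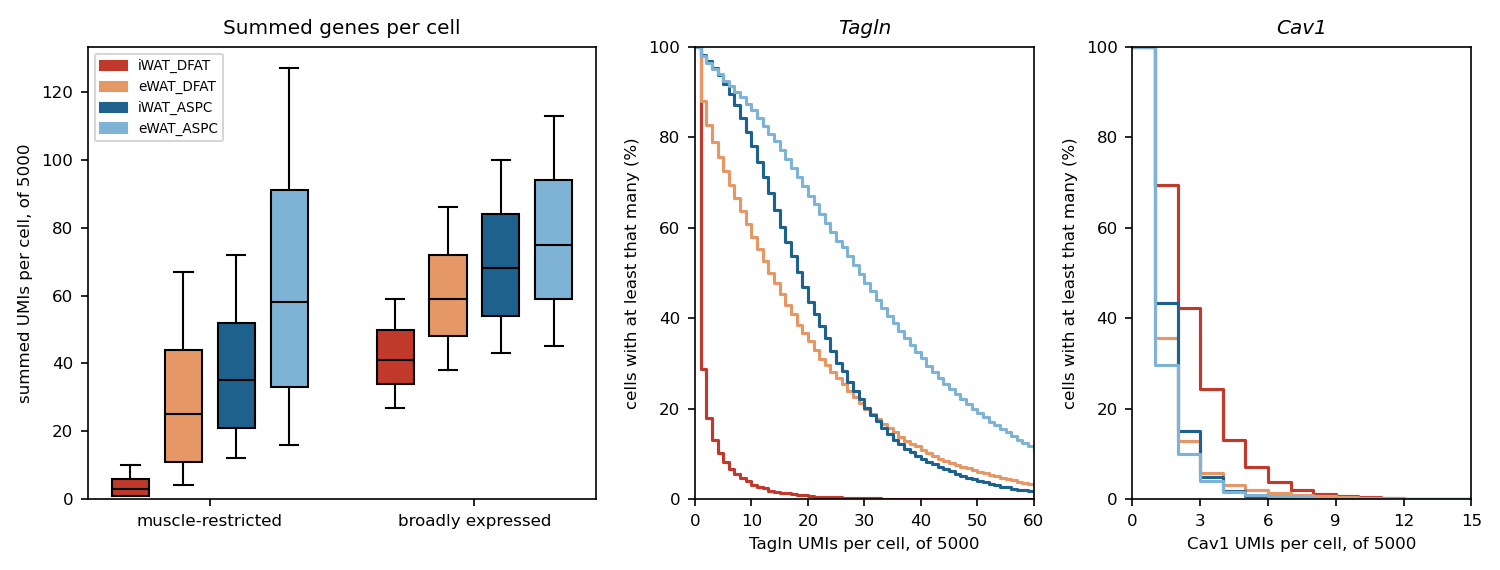
Left, summed UMIs per cell of the muscle genes and of the widely used genes, with each cell thinned to 5000 UMIs (line, median; box, 25th to 75th percentile; whiskers, 10th to 90th). Middle and right, the percent of cells (y) that hold at least a given number of Tagln or Cav1 UMIs (x). The iWAT_DFAT box of the muscle genes has a median of 3 UMIs, its Tagln curve falls first and its Cav1 curve lies above the other libraries.

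The share of cells with a UMI was set beside that of endothelial cells, named from 5 or more of 8 endothelial markers, which numbered 20, 135, 44 and 125 in the 4 libraries and had median depths of 17487, 11252, 15990 and 14642 UMIs. At 5000 UMIs a Myh11 UMI was found in 0.262% (0.160 to 0.405) of iWAT_DFAT cells, 13.8% of eWAT_DFAT, 12.3% of iWAT_ASPC and 37.7% of eWAT_ASPC cells. At full depth the shares were 1.19%, 29.2%, 27.7% and 59.2%. In endothelial cells it was 0 of 20 in iWAT_DFAT, which allows up to 15%, 7.41% in eWAT_DFAT, 0 of 44 in iWAT_ASPC, which allows up to 6.82%, and 3.2% in eWAT_ASPC. For Mylk the shares were 4.60%, 37.4%, 42.8% and 78.8%, at full depth 12.9%, 66.0%, 68.8% and 93.4%, and the endothelial shares at 5000 UMIs were 20%, 31.1%, 22.7% and 26.4%. The iWAT_DFAT share of Mylk was under the endothelial one, which came from 20 cells. Endothelial cells held Mylk UMIs in all 4 libraries, and whether as their own or as free RNA was not tested. No expression is read from the iWAT_DFAT share alone. For Des the shares were 0.891%, 17.1%, 1.17% and 44.4%, at full depth 4.57%, 43.3%, 4.84% and 70.7%. The endothelial shares of Des at 5000 UMIs were 10%, 7.41%, 0 of 44 and 8%, and no order between the iWAT libraries is read from these shares.

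The few cells with a Myh11 UMI in iWAT_DFAT also held more Cnn1 and Tagln. At 5000 UMIs they numbered 20 in iWAT_DFAT, 892 in eWAT_DFAT, 913 in iWAT_ASPC and 2542 in eWAT_ASPC. In iWAT_DFAT, Cnn1 reached 84.4 CPM in these 20 cells against 4.83 CPM in all other cells, or 4.13 on the log2 scale (3.68 to 4.55), and the log2 ratio was 1.71, 1.53 and 1.53 in the other libraries. For Tagln the levels were 2323 and 270 CPM, or 3.10 on the log2 scale, with 1.03, 0.77 and 0.83 in the other libraries. The ratios were higher in the library where Myh11 was rarest. Csrp2 did not go with Myh11, with log2 ratios of -0.11, 0.05, -0.003 and -0.03. Median depths of the cells with and without Myh11 were 26587 and 22102 UMIs in iWAT_DFAT. Over cells within a library, the log-scaled thinned levels of Tagln and Tpm2 had Pearson correlations of 0.44, 0.67, 0.71 and 0.77 over the 7629, 6464, 7424 and 6745 cells, which within each library share their source and thinned depth. Most pairs were less alike, as the median over all pairs of these genes, Acta2 and Actg2 with a mean of at least 1 UMI per cell was 0.12, 0.23, 0.16 and 0.20. That limit was applied within each library, so the medians cover different sets of 105, 120, 253 and 325 pairs.

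Markers of other cell types moved with some of these genes. Skeletal muscle markers (8 genes) summed to 6.90, 36.0, 125 and 134 CPM in the order used above, and the actin Acta1 was 3.02 CPM of it in iWAT_DFAT and 115 CPM in iWAT_ASPC. Myog and Myod1 were at 0 in 3 libraries and at most 0.145 CPM in iWAT_ASPC. ASPC markers (11 genes) summed to 8364, 2728, 8370 and 7939 CPM, lowest in eWAT_DFAT. Endothelial markers (8 genes) summed to 22.4, 47.1, 34.6 and 67.0 CPM, lowest in iWAT_DFAT and highest in eWAT_ASPC. The part of these marker lists in the levels of the 42 genes was not tested. Pericyte and vascular smooth muscle markers (9 genes) summed to 31.2 CPM in iWAT_DFAT, 27.5 in eWAT_DFAT, 51.0 in iWAT_ASPC and 40.5 in eWAT_ASPC. Cells with 3 or more of these markers were 0.551%, 2.57%, 4.93% and 2.71% of cells, and they held 25.8% of Ppp1r14a UMIs, 18.9% of Synpo2 UMIs and 13.6% of Myh11 UMIs in eWAT_DFAT. Of Tagln UMIs they held at most 7.33% in any library. Mesothelial markers (8 genes) summed to 5.97, 32.4, 71.4 and 142 CPM, but Krt19 made up 70.7 CPM of iWAT_ASPC, while Msln, Upk3b, Lrrn4, Upk1b, Wt1, Krt8 and Muc16 were each at or under 0.532 CPM in both iWAT libraries. Cells with 3 or more mesothelial markers were 8.30% of eWAT_ASPC cells and held 23.0% of its Pdlim3, 15.2% of its Cav1 and 14.6% of its Csrp2 UMIs, but 4.31% of its Des UMIs. In eWAT_ASPC cells without those markers Des stood at 268 CPM, against 259 CPM in all its cells. The part of the pericyte-marker cells in the levels of Ppp1r14a and Synpo2 was not tested.

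Leaving out every cell with 3 or more UMIs of pericyte markers, or of endothelial, mesothelial, Schwann cell, immune and adipocyte markers together, kept 3360 to 5851 cells per library. It left out 3820 of 7424 iWAT_ASPC cells, and such a sum does not by itself name a cell of another type. The Pdlim3 log2 ratio of iWAT_ASPC to eWAT_ASPC moved from -3.04 to -2.32 and that of eWAT_DFAT to eWAT_ASPC from -3.03 to -2.40. For Tpm1 and Flna in iWAT, and for Csrp2 and Itga8 in eWAT, the DFAT to ASPC difference came to less than 2-fold, with log2 ratios from -1.05 to -0.84, -1.13 to -0.996, -1.10 to -0.98 and -1.16 to -0.75. Cell cycle genes were seen in the thinned counts of 73.4% of iWAT_DFAT, 79.0% of eWAT_DFAT, 76.0% of iWAT_ASPC and 65.8% of eWAT_ASPC cells. Between cells with and without them the median log2 ratio of the 42 genes was between -0.08 and 0.07 in the 4 libraries, with genes on both sides. In iWAT_DFAT Myh10 was at 0.94, and Vcl and Mustn1 were both at -0.73.

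The actins, kept apart from the 42 genes, moved with them. Acta2, the actin of vascular smooth muscle, stood at 394, 2856, 8763 and 9297 CPM and Actg2, the actin of visceral smooth muscle, at 4.50, 89.0, 355 and 657 CPM. Acta1, the skeletal isoform, stood at 3.02, 32.6, 115 and 129 CPM. All 3, out of 5 actins that reached 5 CPM, were 2-fold or more lower in DFAT cells than in ASPCs of both depots. Of all genes, 2.54% were. Actb, the actin of all cells, stood at 4523, 8412, 8461 and 10160 CPM and passed 2-fold in no comparison. In the list of other muscle genes 8 of 14 were 2-fold or more lower in iWAT_DFAT than in iWAT_ASPC, with 5.18% of all genes, and 0 higher, with 9.91%. Between eWAT_DFAT and eWAT_ASPC 8 of 15 were lower, with 6.67% of all genes. Acta1 was among the 8 in each depot, so this list overlaps the actins and the skeletal muscle markers. Tnnt2, the cardiac troponin T and another member of the list, stood at 0.212, 3.93, 10.2 and 39.3 CPM.

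Lists of adhesion genes and of other SRF targets held genes on both sides. Of 34 other focal adhesion and cytoskeleton genes, 9 were lower and 2 higher in iWAT_DFAT than in iWAT_ASPC, where 5.18% and 9.91% of all genes were, led by Nexn at 11.3, 67.5, 123 and 223 CPM and Lims2 at 4.53, 18.4, 29.7 and 65.3 CPM. SRF and YAP targets outside the contractile set went both ways, 9 higher and 6 lower of 19 between iWAT_DFAT and iWAT_ASPC, beside the same shares of all genes. Egr3, an immediate early gene, stood at 95.6, 14.4, 3.69 and 3.93 CPM, highest in iWAT_DFAT. Ankrd1, a stretch-induced YAP target, stood at 10.4, 213, 124 and 239 CPM, lowest in iWAT_DFAT.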

How the data were processed

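The authors made 10x Genomics 3′ v3.1 libraries, aligned them to mm10 with Cell Ranger (7.0.0 per the labels, 7.1.0 per the file headers of 3 libraries, and only 4 in that of iWAT_ASPC) with introns included per their methods, and deposited unfiltered UMI counts per gene and barcode. Their methods name CellBender for ambient RNA, which was not rerun here. All 42 genes were found by symbol in each library, and 0 deposited columns were left unused.

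Cells were kept as stated in the report. No doublet caller was run, and an alternative left out the 5% of cells with the most UMIs. UMIs were summed per library and scaled to CPM. Intervals for levels were exact Poisson, for ratios exact conditional binomial and for shares Clopper-Pearson, at 95%. A floor of 3 counts gave the limit for a share of 0. With 1 library per condition no test was made. Endothelial cells held 5 or more endothelial marker genes, and pericyte- or mesothelial-marker cells 3 or more of theirs. Cells were thinned to 5000 UMIs (seed 1). Ratios were checked on simulated counts. The genes, lists and markers were chosen with earlier results of these data known, and non-member genes are named as those past 2-fold, or leading, in such a list, some chosen after their values were seen. CArG boxes were searched in RefSeq promoters (GRCm38.p6). Python 3.11.15, numpy 2.4.6, scipy 1.17.1 and pandas 2.3.3 were used. The result of 1 signalling gene list is not reported here.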

Additional observations from a re-analysis of the deposited data

Results flagged for a closer look

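For Vcl and Dmd the same contrast had opposite signs in a pair of groups, with 1 library in each arm, and the difference between the groups was not tested. The log2 ratio of DFAT cells to ASPCs for Vcl was 0.3741 in iWAT and -0.9638 in eWAT. Between iWAT and eWAT the Vcl log2 ratio was 0.7326 among DFAT cells and -0.6053 among ASPCs. For Dmd, the log2 ratio of iWAT to eWAT was -2.881 among DFAT cells and 0.8647 among ASPCs.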

How the results depend on the processing

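The 65 ratios past 2-fold were recomputed with 13 other choices of cells, scaling, depth or free RNA, and 0 of them changed sign. Of all 156 ratios, 34 moved by over 1.5 times in cells without a cell cycle UMI, where 10 changed sign. When cells with 3 or more UMIs of markers of other types were left out, 1778 to 3820 per library, 2 (Pdlim3) moved that far. In cells without a cell cycle UMI, the Myh11 log2 ratio moved from -6.14 to -9.39 between the DFAT libraries and from -2.12 to -1.18 in eWAT. Dmd moved from -0.98 to 0.10 in eWAT, Vcl from 0.37 to 1.21 in iWAT and Srf from -0.62 to -1.27 between the ASPC libraries. A limit of 1.5-fold in place of 2-fold gave 2 higher and 24 lower genes between the DFAT libraries (17.6% and 9.1% of all genes), 2 higher and 16 lower between the ASPC libraries (7.25% and 7.44%), and 1 higher and 28 lower between eWAT_DFAT and eWAT_ASPC (15% and 13.1%). A minimum of 1 CPM gave 1 higher gene between the ASPC libraries. Cells without a cell cycle UMI were few, 316 to 550 per library. They were also shallower than the other cells, most of all in eWAT_DFAT, with a median of 14277 against 27995 UMIs. They gave 2 higher genes between the ASPC libraries, 2 between the iWAT libraries and 3 between the eWAT libraries, with 6 calls lost and 16 gained. The lost calls were Cav1 between the DFAT libraries (log2 ratio 0.63), Pdlim3 between the ASPC libraries (-0.97), Csrp1 in iWAT (-0.98), and Ppp1r14a (-0.63), Itga8 (-0.53) and Synpo2 (-0.65) in eWAT. The causes were not tested, and the share of all genes called in cells without a cell cycle UMI was not counted. Smtn lay at the 2-fold limit, with log2 ratios of -1.01 and, without an upper limit on cells, -0.99 between the DFAT libraries. Size factors from the median of ratios lost 0 calls and gained 9. Free RNA subtracted at 10%, the mean of cell CPM and thinning to 5000 UMIs each lost 1 call. No paired analysis was possible because each condition was 1 library, for which the labels give no replicate number. For the same reason the spread between cultures or mice is unknown, and neither depot nor kind of cell can be told apart from library. Per the methods, DFAT cells began in filled, inverted flasks and SVF cells in dishes, so kind of cell and culture cannot be told apart. Counts were scarce in iWAT_DFAT for Myocd and Kcnmb1 (17 UMIs each) and Pdlim3 (26 UMIs).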
